A study of Homo sapiens with 2 samples.

Results

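The genes of the hnRNP and SR protein families were examined for IGF2BP3 binding in OE-19 cells. They were taken as all GENCODE 44 protein-coding genes whose symbol starts with HNRNP or SRSF, which gave 39 of 20046 genes, 27 with an HNRNP symbol and 12 with an SRSF symbol. The peaks that overlap their spans numbered 63 of 21142 in replicate 1 and 68 of 20799 in replicate 2. All protein-coding genes together held 18937 and 18858 peaks, and these serve as the reference. IGF2BP3 binds mRNA and was studied as a reader of N6-methyladenosine (m6A), a methyl mark on RNA. OE-19 is an established human cell line that grew from an adenocarcinoma at the junction of esophagus and stomach. LACE-seq maps binding sites by UV crosslinking, immunoprecipitation with an IGF2BP3 antibody and linear amplification of cDNA ends. Both replicates belong to a single group of this 1 line, with no treatment in the labels, described by the study as biological replicates, and no input, IgG or IGF2BP3-depleted library was analysed here.

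The hnRNP proteins coat nascent transcripts and act in splicing, export, stability and translation of RNA, often as repressors of exon inclusion. The SR proteins carry 1 or more RNA recognition motifs and a domain rich in arginine and serine dipeptides, and they often promote exon inclusion. Many genes of both families control their own protein level through alternative exons that hold a premature stop codon. Inclusion of such a poison exon sends the transcript to nonsense-mediated decay (NMD).

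At least 1 peak was present in 33 of the 39 genes, in 27 genes in replicate 1 and in 31 in replicate 2. Overlapping peaks of both replicates, with at least 1 shared bp, were found in 23 genes (59.0%, Wilson 95% interval 43.4 to 72.9%), against 30.5% of all protein-coding genes. Among genes with a peak in either replicate, the share with an overlapping pair was 69.7% (52.7 to 82.6%) here and 63.0% (62.1 to 64.0%) over all genes. A peak in either replicate was present in 9717 of all 20046 genes. Peaks need transcripts, and transcript levels were not analysed here, so the counts cannot be set against expression. The readthrough gene HNRNPUL2-BSCL2 shares its 3 overlapping pairs with HNRNPUL2, so that the 37 pairs sit in 22 separate genes.

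Among the HNRNP genes, 18 of 27 (66.7%, 47.8 to 81.4%) had an overlapping pair, and among the SRSF genes 5 of 12 (41.7%, 19.3 to 68.0%). The SRSF genes held 12 peaks in replicate 1 and 24 in replicate 2, whereas the HNRNP genes held 51 and 44. SRSF3, SRSF6, SRSF7, SRSF10, HNRNPA3 and HNRNPM had peaks in replicate 2 and none in replicate 1. HNRNPA1 and HNRNPH2 had a peak in replicate 1 and none in replicate 2. SRSF5 and SRSF8 had peaks in both lists that did not overlap. No peak was listed in HNRNPA1L2, HNRNPA1L3, HNRNPCL2, HNRNPCL3, HNRNPCL4 and SRSF12.

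Of all member peaks, 37 of 63 (58.7%, 46.42 to 70.04%) in replicate 1 and 38 of 68 (55.9%, 44.1 to 67.1%) in replicate 2 overlapped a peak of the other list. These shares lay near those of all peaks in protein-coding genes, 60.7% in replicate 1 and 61.1% in replicate 2. The 38 include a peak at the far start of the SRSF9 span whose partner lies outside that span. The median fold enrichment at the summit, over the local background of the authors' peak caller, was 6.11 in replicate 1 and 7.42 in replicate 2, against 6.82 and 7.10 over all peaks in protein-coding genes. Within the full list of its replicate, the median member peak stood at the 34.5th percentile of fold in replicate 1 and at the 55.0th in replicate 2. Library depth in reads is unknown, and the read pileup at the summit, recovered from the deposited fold and p-value, is given as depth. Its median was 37 reads (range 8 to 96) in replicate 1 and 24.5 reads (9 to 92) in replicate 2, against 23 reads over all genes in both.

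**Figure D1:**
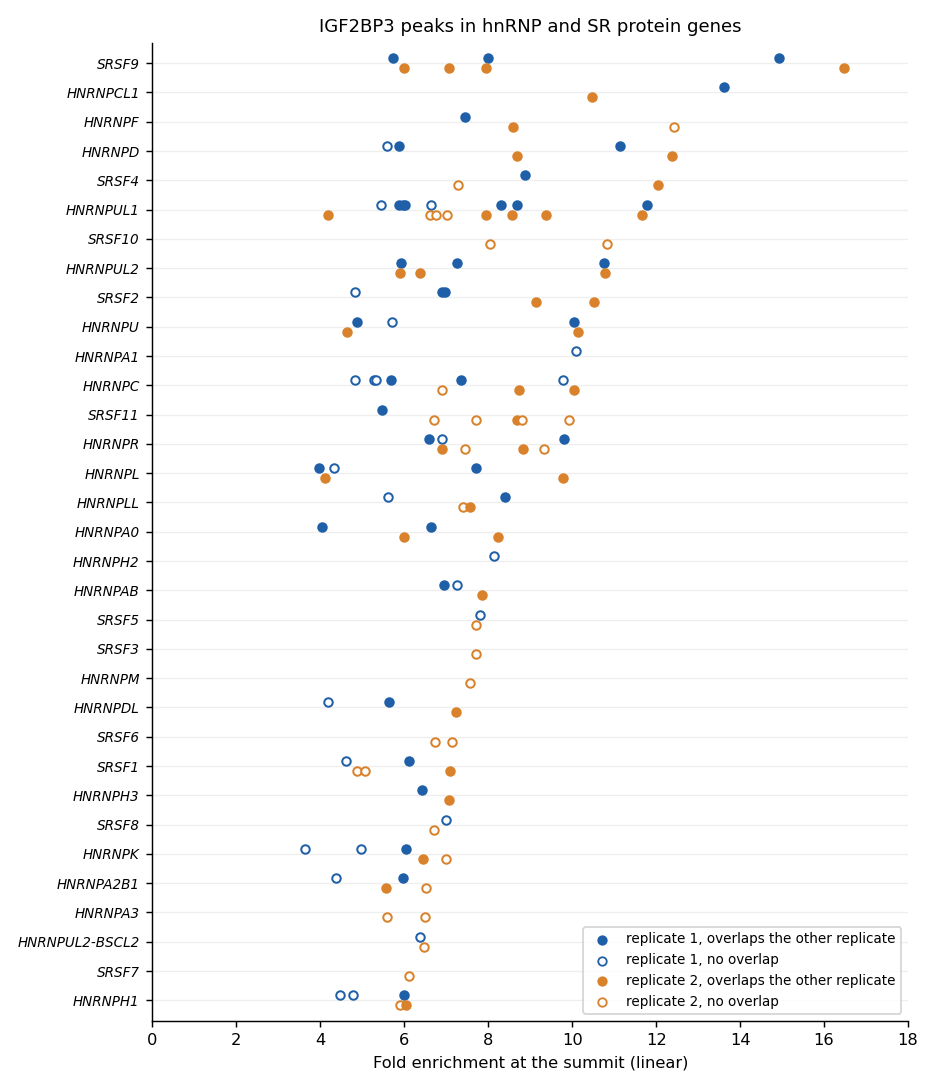
Each point is a peak, plotted by its fold enrichment at the summit (x axis, linear) for the 33 genes with a peak (y axis), in blue for replicate 1 and orange for replicate 2, and filled where it overlaps a peak of the other replicate. The strongest filled points are those of SRSF9 at 14.9 and 16.5, and SRSF10 has 2 open points at 8.04 and 10.8 in replicate 2 and none in replicate 1.

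Described in full were the 8 pairs, 1 per gene, with the largest lower percentile of fold in the 2 lists: SRSF9, HNRNPD, HNRNPUL2, HNRNPCL1, HNRNPU, SRSF4, HNRNPUL1 and HNRNPR. The hg38 sequence reaching 50 nt to each side of the replicate 1 summit is shown for 5 of those whose summit does not lie in a UTR. Each is written 5′ to 3′ on the strand of the gene. In SRSF4 and HNRNPR the replicate 2 summit lies outside the window, 202 and 193 nt from that of replicate 1.

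In HNRNPUL2 the capitals mark the motif GGAC, part of the m6A consensus, which occurs 4 times in the window.
HNRNPUL2, chr11:62726877-62726977, minus strand: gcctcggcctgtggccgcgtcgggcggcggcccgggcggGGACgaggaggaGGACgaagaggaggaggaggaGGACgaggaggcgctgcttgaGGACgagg
In SRSF4 and HNRNPR the capitals mark the codons of arginine and serine.
SRSF4, chr1:29148638-29148738, minus strand: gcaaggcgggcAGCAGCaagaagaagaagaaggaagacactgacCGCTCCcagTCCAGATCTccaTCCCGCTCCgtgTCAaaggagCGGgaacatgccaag
HNRNPR, chr1:23310816-23310916, minus strand: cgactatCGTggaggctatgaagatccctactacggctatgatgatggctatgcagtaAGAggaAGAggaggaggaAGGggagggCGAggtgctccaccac
In HNRNPUL1 the capitals mark the bases of an exon, and the lower case before them the end of the intron.
HNRNPUL1, chr19:41292193-41292293, plus strand: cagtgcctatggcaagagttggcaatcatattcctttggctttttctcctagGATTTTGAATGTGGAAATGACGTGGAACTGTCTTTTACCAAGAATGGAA
In HNRNPCL1 the capitals mark bases in a 31-mer that occurs more than once in hg38, which here are all of them.
HNRNPCL1, chr1:12847654-12847754, minus strand: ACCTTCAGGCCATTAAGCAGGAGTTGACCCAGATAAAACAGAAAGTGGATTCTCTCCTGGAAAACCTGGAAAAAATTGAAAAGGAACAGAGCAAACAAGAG

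HNRNPU and HNRNPUL2 encode related nuclear proteins with a SAP domain, and in both the strongest pair covered the first exon with the start codon. The HNRNPU pair had folds of 10.1 in both replicates, with a pileup of 93 reads in replicate 1 and 92 reads in replicate 2. The 2 summits were 25 nt apart, in the coding sequence. In HNRNPUL2 the pair at chr11:62726697-62727447 in replicate 1 had folds of 10.8 in both replicates, pileups of 52 and 44 reads and summits 17 nt apart. Its window encodes an acidic stretch, with 17 of 33 codons for aspartate or glutamate, and all 4 GGAC matches lie within it or next to it. The purine share of this window was 71.3%, where the median over all genes was 48.5% in both replicates. The HNRNPU pair also spans an exon of a lncRNA gene on the opposite strand, and since the deposited peaks carry no strand, the 2 transcripts cannot be told apart there. The readthrough gene HNRNPUL2-BSCL2 shares the peaks of HNRNPUL2. Its other peaks, over exons of BSCL2, had folds of 6.37 in replicate 1 and 6.48 in replicate 2 and no partner.

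HNRNPUL1, a relative of HNRNPU, had the most peaks of the 39 genes, 8 in each replicate, of which 5 in each overlapped. Its first exon with the start codon was covered at folds of 8.31 and 11.7, with summits 1 nt apart. The strongest pair of replicate 1 lay at exon 8 of 15, at chr19:41292087-41292501, with folds of 11.8 and 9.36 and pileups of 37 and 18 reads. The summit of replicate 1 fell in the intron, 2 nt before the exon, and that of replicate 2 fell 15 nt away inside the exon. The lower case letters before the exon hold the polypyrimidine tract and the AG of the 3′ splice site. A pair at exon 6 had folds of 8.68 and 7.94, with both summits in the intron before the exon. The coding end and the 3′ UTR in the last exon were covered as well, at 5.87 and 8.57 and at 6.01 and 4.19. The replicate 2 peak of this 3′ UTR pair also lies on an exon of a gene on the opposite strand. The other peaks, at exons 2, 9 to 10 and 12 in replicate 1 and at exons 3, 5 and 13 in replicate 2, had no partner. The peak at exon 12 also lies on an exon of TGFB1 on the opposite strand. At the unpartnered peak on exon 5, the 31-mer at the summit occurs 140 times in hg38.

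SRSF9 had the strongest pair of all member peaks. The peak at chr12:120469475-120469863 in replicate 1 had a fold of 14.9 and a pileup of 38 reads, and the peak at chr12:120469472-120469916 in replicate 2 a fold of 16.5 and a pileup of 46 reads. These folds stood at the 98.0th and 98.4th percentile of their lists, and the summits were 5 nt apart in the 5′ UTR of the first exon. An exon of DYNLL1 on the opposite strand lies under both peaks, so the pair could not be assigned to SRSF9 alone. A pair at exon 3 of 4 had folds of 7.996 and 7.946, and a pair at the last exon 5.72 and 5.98. Both peaks of the last-exon pair also lie on an exon of GATC on the opposite strand.

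SRSF4 had its strongest pair in the last exon, which encodes the arginine and serine rich domain. The folds were 8.885 and 12.05 (chr1:29147940-29149125 and chr1:29148437-29149253), with pileups of 36 and 50 reads and summits 202 nt apart. In the window around the replicate 1 summit, 12 of 33 codons encode arginine or serine. HNRNPR, which binds RNA through RNA recognition motifs and an arginine and glycine rich tail, also had its strongest pair in the coding part of the last exon. Its folds were 9.81 and 8.83 at chr1:23310165-23311188 and chr1:23310541-23310960, with pileups of 64 and 26 reads and summits 193 nt apart. The window shown contains 5 arginine or serine codons in 33, interleaved with glycine codons. HNRNPR had 3 peaks in replicate 1 and 4 in replicate 2, among them a pair upstream of exon 8 with summits 2 nt apart at folds of 6.60 and 6.89.

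HNRNPD (AUF1), a binder of AU-rich elements, had its strongest pair in the first exon at folds of 11.1 and 12.4, with pileups of 77 and 67 reads. The first exon of HNRNPD-DT on the opposite strand also lies under this pair. A weaker pair at exon 6 had folds of 5.88 and 8.67. In HNRNPDL, its close relative, the first exon was covered at 5.63 and 7.23.

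HNRNPC binds uridine tracts, and it had 6 peaks in replicate 1 and 3 in replicate 2. A pair reached from exon 7 to the stop codon in the last exon at folds of 7.35 and 10.1, and a pair at the first exon had 5.68 and 8.73. The strongest peak of replicate 1, at 9.78, covered the start codon in exon 3 and had no partner. Neither had the other HNRNPC peaks, at 4.82, 5.27 and 5.33 in replicate 1 and at 6.90 in replicate 2. HNRNPCL1, a gene similar in sequence to HNRNPC, had a pair at chr1:12847440-12847908 with folds of 13.6 and 10.5 and pileups of 21 and 15 reads. The 31-mer at the summit occurs 4 times in hg38 in replicate 1 and 6 times in replicate 2. Of the 31-mers in the peak, 66.7% and 70.5% occur more than once, and 17.5% and 19.7% occur in the HNRNPC mRNA. HNRNPCL1 and its copies therefore cannot be told apart as the source of this pair.

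The other hnRNP genes follow by group. Of the A/B group, HNRNPA0, with a single exon, had a pair at the stop codon (6.64 and 8.24) and a pair at the start codon (4.04 and 5.99). HNRNPAB had a pair at its first exon (6.95 and 7.85), and HNRNPA2B1 a pair at the stop codon (5.98 and 5.55). In HNRNPA3 only replicate 2 had peaks, at 6.50 and 5.59. The peak of 6.50 had its summit just outside the gene and also touched exons of MIR4444-1 and of a gene on the opposite strand. The peak of 5.59 lay over an exon of NFE2L2 on the opposite strand. HNRNPA1, a much studied splicing repressor, had a single peak in replicate 1 at 10.1, in its last exon, where 87.6% of the 31-mers occur more than once and the summit 31-mer occurs 13 times.

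Of the genes for the G-run binding F/H group, HNRNPF had the widest peaks of all members, 1711 bp in replicate 1 and 1443 bp in replicate 2, with folds of 7.454 and 8.599 over the single exon that encodes the protein. It also had a peak of fold 12.4 on exon 2 in replicate 2 with no partner. HNRNPH1 had a pair at the start codon (6.002 and 6.046) and HNRNPH3 a pair at the first exon (6.42 and 7.06), the latter with pileups of only 9 and 10 reads. The only peak of HNRNPH2, at 8.13, also lies on an exon of the readthrough gene RPL36A-HNRNPH2.

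HNRNPL, which binds CA repeats, had a pair at the start codon (7.71 and 9.78) and a pair at exon 8 (3.97 and 4.12), the weakest of the 37 pairs by percentile. The replicate 1 peak of the exon 8 pair also lies on an exon of another gene on the same strand. HNRNPLL, a relative of HNRNPL, had a pair at the start codon (8.39 and 7.56). HNRNPK, a KH domain protein, had its only pair (6.03 and 6.45) at the gene start, outside the exons of the MANE Select transcript (the representative transcript of a gene) and shared with an exon of RMI1 on the opposite strand. HNRNPM had a single peak of 7.56 in replicate 2, with a pileup of 9 reads, and it also touched an exon of a gene on the opposite strand.

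Among the other SR protein genes, SRSF2 had a pair at the start codon (6.98 and 10.5) and a pair at exon 2 (6.90 and 9.14), both over exons of MFSD11 on the opposite strand. SRSF1 had a pair in its last exon (6.11 and 7.10). All peaks of SRSF1 also lie on an exon of another gene on the same strand. The pair could thus not be assigned to SRSF1 alone. In SRSF11 a pair at the start codon (5.47 and 8.68) had pileups of 8 and 11 reads. SRSF11 had 4 further peaks in replicate 2, at folds of 6.72 to 9.92. At the peak of 6.72, the 31-mer at the summit occurs 171 times in hg38. SRSF10 had a peak of 10.8 at its start codon and a peak of 8.04 at exons 4 to 5, both in replicate 2. The remaining peaks without a partner in SRSF5, SRSF6, SRSF7 and SRSF8 ranged from 6.10 to 7.81. The SRSF6 peaks also lie on an exon of another gene on the same strand. The SRSF7 peak also lies on an exon of GEMIN6 on the opposite strand.

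**Figure D2:**
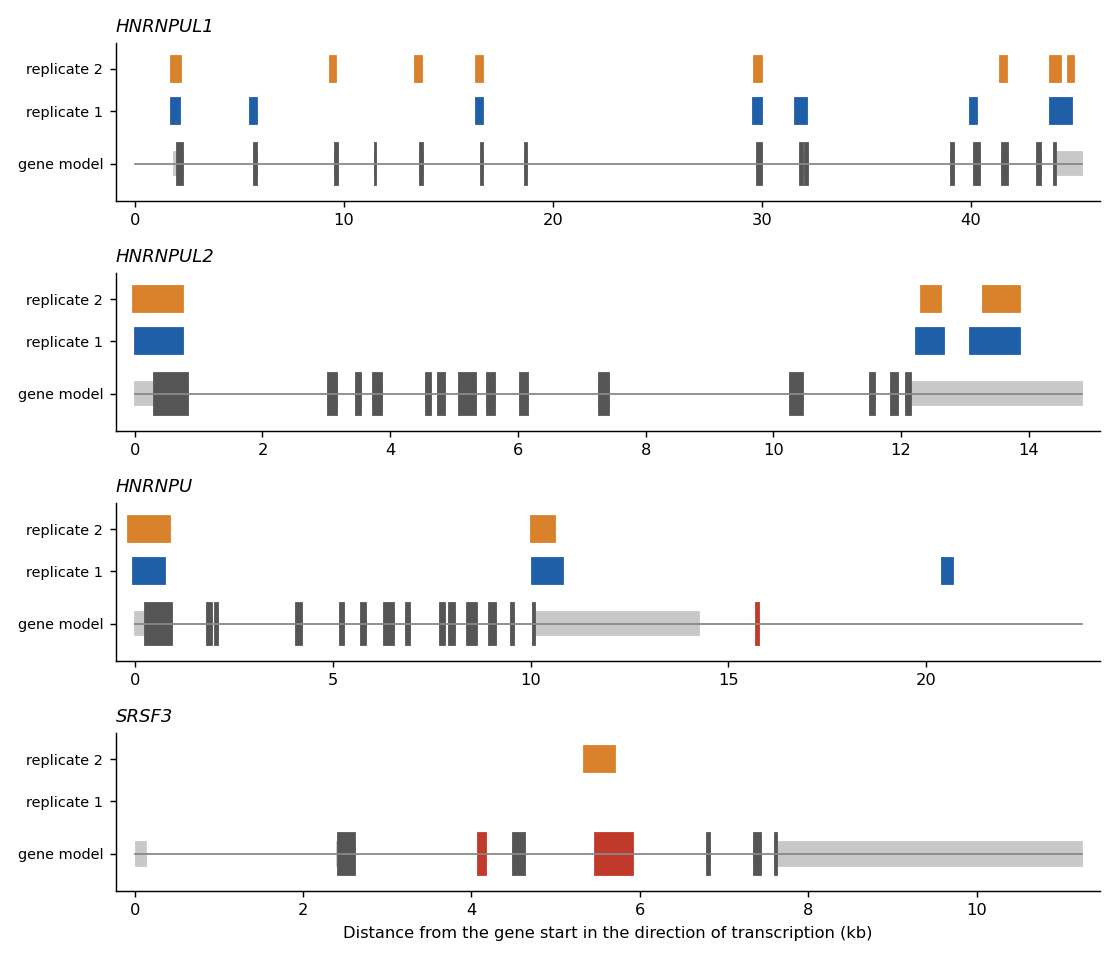
Gene models of HNRNPUL1, HNRNPUL2, HNRNPU and SRSF3 are drawn by distance from the gene start along transcription (x axis, kb), with coding exons in dark grey, UTRs of the MANE Select transcript in light grey, poison exons in red, and the peaks of replicate 1 in blue and replicate 2 in orange above. All peaks but 1 touch an exon drawn, the exception being a replicate 1 peak of HNRNPU at the far end of the gene, both replicates cover the first exon of the top 3 genes, and the only peak of SRSF3 lies on its 456-nt poison exon in replicate 2.

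The start codon of the MANE Select transcript was covered in both replicates in 14 of 39 genes (35.9%, 22.7 to 51.6%), against 6.64% of all protein-coding genes. Among genes with an overlapping pair the share was 60.9% (40.8 to 77.8%, 14 of 23) here and 21.5% (20.5 to 22.6%) over all genes. The genes were HNRNPA0, HNRNPAB, HNRNPD, HNRNPF, HNRNPH1, HNRNPL, HNRNPLL, HNRNPU, HNRNPUL1, HNRNPUL2, SRSF2, SRSF9 and SRSF11, plus the readthrough gene with the same peak as HNRNPUL2. In HNRNPAB, HNRNPD, HNRNPU, SRSF2 and SRSF9 a peak there also touched an exon of a gene on the opposite strand. Stop codons were covered in both replicates in 5 of 39 genes (12.82%, 5.603 to 26.71%), against 9.03% of all genes, namely HNRNPA0, HNRNPA2B1, HNRNPC, HNRNPU and HNRNPUL1. Among genes with an overlapping pair, the stop codon share was 21.7% (9.66 to 41.9%) here and 29.4% (28.3 to 30.6%) over all genes, so that its order against the reference turned. Another 9 genes had the stop codon covered in replicate 1 alone, and in 5 of them a shorter or shifted peak of replicate 2 overlapped the peak but not the codon.

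By summit position, the coding sequence held 39.7% (28.5 to 52.0%) of the member peaks in replicate 1 and 38.2% (27.6 to 50.1%) in replicate 2, against 33.1% and 33.5% over all genes. The 5′ UTR held 17.5% (10.0 to 28.6%) and 23.5% (15.03 to 34.86%), against 7.28% and 13.0%. For the 3′ UTR the replicates were apart, though their intervals overlap, with 14 of 63 peaks (22.2%, 13.7 to 33.9%) in replicate 1 and 5 of 68 (7.35%, 3.18 to 16.1%) in replicate 2, against 24.2% and 19.2% over all genes. All 5 of replicate 2 lay in HNRNP genes. In windows that extend 50 nt on either side of the summit, the members had a median GC content of 48.5% in replicate 1 and 57.9% in replicate 2, and over all genes the same values were 49.5% and 56.4%. Whether the base composition of the libraries has a part in the replicate difference was not tested.

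**Figure D3:**
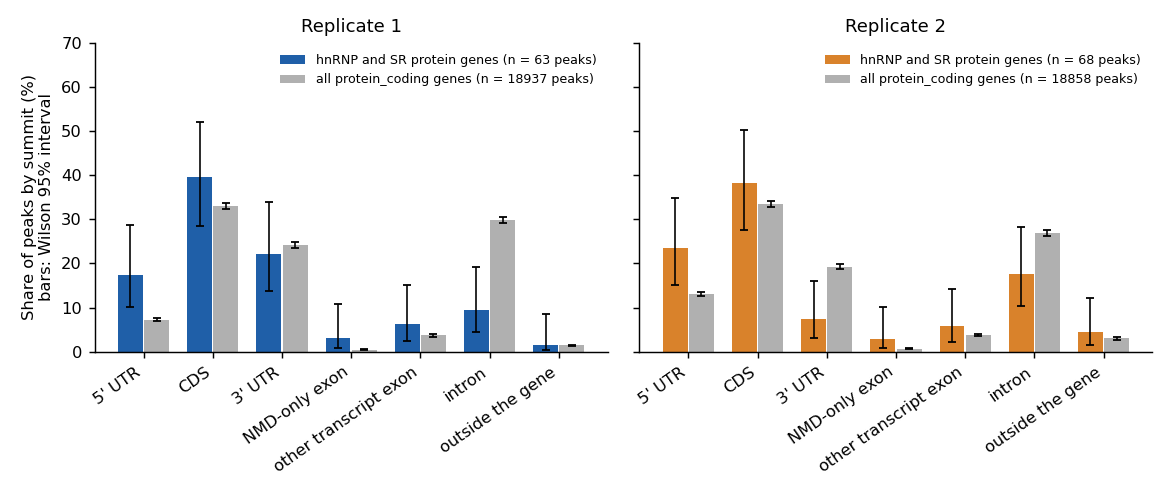
Bars give the share of peaks by the region of the summit (y axis, percent) in each region class (x axis) for replicate 1 (left) and replicate 2 (right), coloured for the hnRNP and SR protein genes and grey for all protein-coding genes, with Wilson 95% intervals. The 5′ UTR bars of the members reach 17.5% and 23.5% beside 7.28% and 13.0% in grey, and the intron bars stand at 9.52% and 17.6% beside 29.9% and 26.8% when all transcripts are counted, a gap that narrows to 27.0% and 33.8% beside 37.1% and 35.4% with the MANE Select transcript alone.

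Introns held the summit of 6 of 63 member peaks (9.52%, 4.44 to 19.3%) in replicate 1 and 12 of 68 (17.6%, 10.4 to 28.4%) in replicate 2, against 29.9% and 26.8% over all genes. With the MANE Select transcript alone the shares rose to 27.0% (17.6 to 39.0%) and 33.8% (23.7 to 45.7%), against 37.1% and 35.4% over all genes, and both intervals then contain the reference. The lower intron share thus depends on which transcripts are counted. All 6 and all 12 of these peaks reached into an exon of the MANE Select transcript, and in all of them the summit lay upstream of that exon. Over all genes, the share of intronic summits whose peak reached such an exon was 74.0% and 75.3%. The upstream side held the summit in 4089 of 4184 of those in replicate 1 and 3720 of 3813 in replicate 2. Intron peaks free of any annotated exon were thus not found in these genes: 0 of 63, which allows a share of up to 4.76%, and 0 of 68, up to 4.41%, by 3 counts of the total, while all protein-coding genes had 753 (3.98%) and 578 (3.07%). Besides HNRNPUL1 and HNRNPR, the intronic summits lay in HNRNPA2B1, HNRNPC, HNRNPD, HNRNPLL, the BSCL2 part of the readthrough gene, SRSF1 and SRSF11. Transcripts with annotated retained introns count as exons here. By the MANE Select transcript alone, 4 peaks in replicate 1 (6.35%, 2.50 to 15.2%) and 3 in replicate 2 (4.41%, 1.51 to 12.2%) touched no exon of their gene. Over all genes these shares were 8.89% and 7.95%, and both intervals contain them.

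Poison exons were counted as internal exons of annotated NMD transcripts, outside the MANE Select exons, in which the stop codon of the NMD transcript begins. There were 15 in 11 of the 39 genes, 62 to 456 nt long with a median of 109 nt. No poison exon was covered in both replicates, and 0 of 15 allows a share of up to 20%, against 0.504% of the 4960 poison exons of all protein-coding genes. At this background 15 exons are too few to show a lower or a like share. The internal coding exons of all 39 genes, with a median of 120 nt, were covered in both replicates in 12 of 215 cases (5.58%, 3.22 to 9.50%), against 3.22% of those of all genes. In single replicates the shares were 11.6% and 15.3%, against 5.78% and 5.45%. Genes with no peak are part of these counts, and an overlapping pair was present in 59.0% of the members against 30.5% of all genes. Exon shares among genes with a pair were not counted.

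The exception in a single replicate was SRSF3, whose autoregulated poison exon is a textbook case. In replicate 2 this was 1 of 15 poison exons (6.67%, 1.19 to 29.8%), against 1.05% over all genes, a share that rests on 1 exon. The only peak of SRSF3, in replicate 2 at chr6:36599691-36600054, had its summit inside the 456-nt exon, with a fold of 7.71, a −log10 q of 10.7 and a pileup of 16 reads. Replicate 1 had no peak in the gene. The start of the exon is shown to its in-frame stop codon, which is in capitals.
SRSF3 poison exon, chr6:36599821-36599854, plus strand: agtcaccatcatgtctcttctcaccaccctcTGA
The frame of the annotated NMD transcript runs 34 nt into the exon to this stop. The next closest approach was in SRSF9, where a peak of replicate 2 ended 354 bp from a 90-nt poison exon and that of replicate 1 slightly farther. In HNRNPH1, HNRNPL, HNRNPLL, HNRNPU, SRSF4 and SRSF11, which had peaks in both replicates, the nearest peak was 901 bp or farther from the poison exons. SRSF6 and SRSF7 had peaks in replicate 2 alone, at 667 bp or more, and SRSF12 had none.

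**Figure D4:**
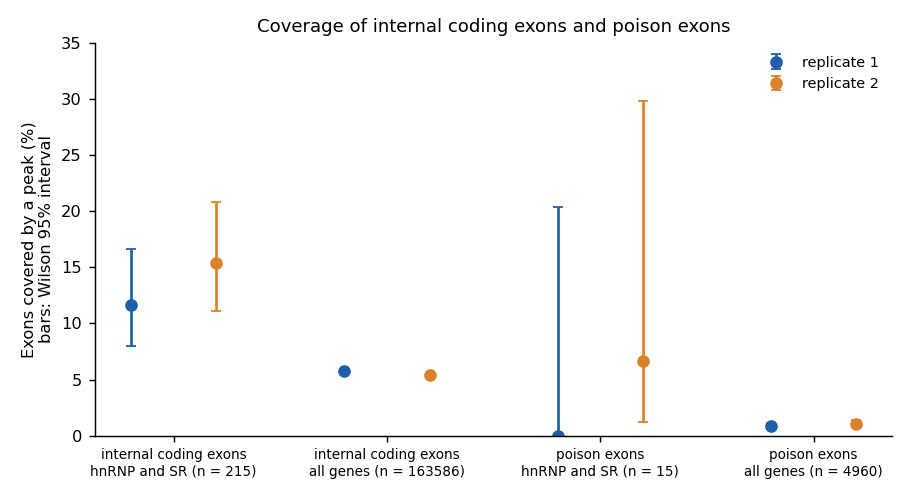
Points give the share of exons covered by a peak (y axis, percent) for internal coding exons and poison exons (x axis), in the hnRNP and SR protein genes and in all protein-coding genes, blue for replicate 1 and orange for replicate 2, with Wilson 95% intervals. The internal coding exons of the members lie at 11.6% and 15.3% beside 5.78% and 5.45% over all genes, while 15 poison exons leave intervals up to 20.4% and 29.8%. Genes with no peak are included in both lists.

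Exons of NMD transcripts outside the MANE Select exons, with no condition on the stop codon, numbered 39. Of these, 1 was covered in both replicates, the 114-nt exon at the start of HNRNPK that lies under the pair shared with RMI1. The share of such exons over all protein-coding genes was not counted, so this count has no reference. The last NMD exon of HNRNPU was covered in replicate 1 at a fold of 5.72, over an exon of COX20 on the opposite strand. The far first exon of SRSF9 was covered in replicate 2 at 7.07, over exons of DYNLL1 and NRAV.

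The fold enrichment of the 37 pairs ranked alike in both replicates to a similar degree as elsewhere. Spearman's rho was 0.706, given as a description since pairs in 1 gene are not independent, and 0.664 over the 11838 pairs of all protein-coding genes. The median distance between paired summits was 40 nt, against 41 nt, and 21 of 37 lay within 50 nt. The fold was higher in replicate 2 in 27 of 37 pairs (73.0%), against 58.1% of all pairs. By percentile within each list, 23 of 37 (62.2%) stood higher in replicate 2, against 51.1%.

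**Figure D5:**
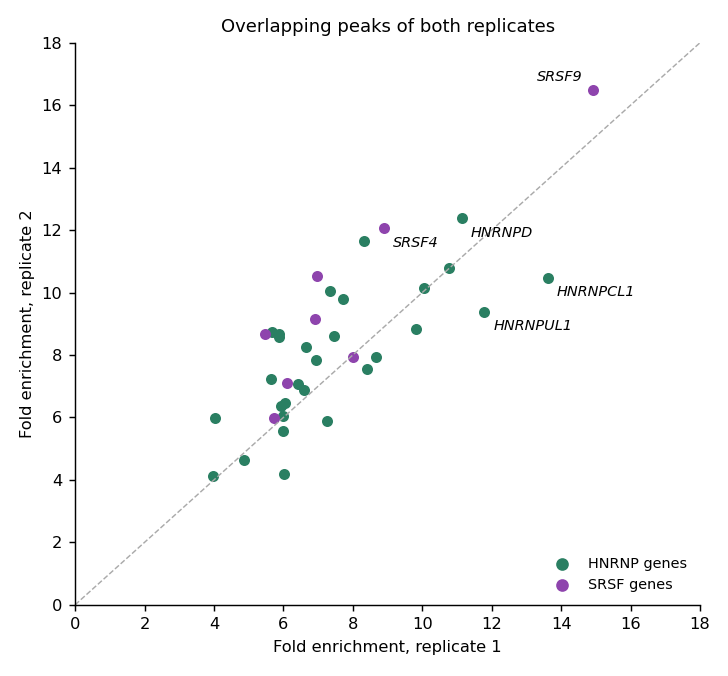
Each point is 1 of the 37 overlapping pairs, with the fold enrichment of replicate 1 (x axis) against that of replicate 2 (y axis), green for HNRNP genes and purple for SRSF genes, and a dashed line of equal values. Most points, 27 of 37, lie above the line, and SRSF9 stands farthest out at 14.9 and 16.5.

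Motifs were counted on the gene strand in the same windows around the summits. GGAC occurred in 23.81% (14.99 to 35.64%) of member windows in replicate 1 and 25% (16.24 to 36.44%) in replicate 2, against 28.9% and 32.0% over all genes. TGGAC, the DNA form of UGGAC and a part of the GGAC windows, occurred in 4 and 3 windows (6.35%, 2.50 to 15.2%, and 4.41%, 1.51 to 12.2%), against 9.97% and 10.1%. CACACA, a CA-rich element, occurred in 1 window in each (1.59%, 0.281 to 8.46%, and 1.47%, 0.260 to 7.87%), against 4.36% and 3.47%. Around the peak centre in place of the summit it occurred in 1 and 3 windows (1.59% and 4.41%), against 3.42% and 3.09%. For GGAC, TGGAC and CACACA around the summit, the intervals of both replicates contain the values over all genes. The median purine share was 51.5% and 52.0% in the member windows and 48.5% over all genes in both.

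Several members share sequence with copies elsewhere in the genome. The share of 31-mers of the mRNA that occur more than once in hg38 was 97.4% for HNRNPCL3, 98.2% for HNRNPCL4, 70.9% for HNRNPCL2, 73.3% for HNRNPA1L2 and 60.5% for HNRNPA1L3, all without a peak. It was 76.4% for HNRNPCL1, which carried a strong pair. For HNRNPA1 it was 42.2%, with 22.4% in more than 10 copies, the number above which the study's first alignment setting drops a read. The processing notes name another aligner, and the lists do hold peaks at such sequence. The summit 31-mer had 13 copies at a peak of HNRNPA1, 140 at one of HNRNPUL1 and 171 at one of SRSF11. HNRNPK (60.5%), HNRNPC (45.3%), HNRNPA3 (45.1%) and HNRNPL (35.3%) also share much sequence with copies, whereas HNRNPUL1, HNRNPA2B1, HNRNPLL, SRSF4, SRSF5 and SRSF7 share none. At the summit itself, a 31-mer with more than 1 copy was present in 7 of the 63 peaks of replicate 1 and in 5 of the 68 peaks of replicate 2. The part of such copies in the absence of peaks was not tested.

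Other genes of the same functions were counted for comparison. Of 37 other splicing regulators, which include hnRNP proteins with other symbols, 32 had an overlapping pair (86.5%, 72.0 to 94.1%). PTBP3, a polypyrimidine tract binder, had 12 peaks in each replicate with top folds of 15.9 and 19.7, and SYNCRIP, the closest relative of HNRNPR, 3 in each with 12.2 and 14.6. TRA2B, an SR-like splicing activator, had 3 and 4 peaks with top folds of 11.4 and 11.8. Of 52 genes of the spliceosome core, 26 had a pair (50%, 36.9 to 63.1%), and of 54 DEAD and DEAH box helicase genes 16 (29.6%, 19.1 to 42.8%). The start codon was covered in both replicates in 8 of 37, 5 of 52 and 5 of 54 genes of these lists.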

How the data were processed

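IGF2BP3 LACE-seq peaks of 2 replicates of OE-19 cells, 1 group per the labels, were analysed. According to the study's methods, reads were aligned to pre-rRNA and then hg38 with Bowtie and peaks were called with Piranha, whereas the submitters' processing notes name fastp, HISAT2 and MACS2, with no versions. The deposited lists have the narrowPeak layout that MACS2 writes, 1 list per replicate. The authors deposited for each peak a start, end and summit, a fold enrichment (a ratio over local background), −log10 p-values and −log10 q-values, and a score column that was not used. Peaks carry no strand and took that of the gene. Positions are 1-based.

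Genes, transcripts and MANE Select flags came from GENCODE 44. For genes with no MANE Select transcript, the Ensembl canonical one was used. A peak belonged to a gene when it overlapped its span. Summits were classed in the order CDS, 3′ UTR, 5′ UTR, exon of NMD transcripts, exon of other transcripts and intron. Overlap was counted from 1 bp. The pileup was the whole number that gives the deposited fold and p-value under a Poisson distribution, within 0.01 on the log10 scale, and was found for every peak. Copies of 31-mers were counted on both strands of hg38. The functions were tested on simulated data. Python 3.11.15, numpy 2.4.6, scipy 1.17.1 and pysam 0.24.0 were used.

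With 1 group, no test between conditions exists. Shares have Wilson 95% intervals, which cover counting error only and treat peaks as independent. The members, the other gene lists and the rules were chosen with earlier results of these data known. The genes chosen for description were those of the 8 pairs with the highest lower percentile of fold, 1 per gene, and the 5 genes with the most peaks. Not every peak of these genes is given. Members with a poison exon covered in both replicates, or with peaks of both replicates off all exons, would have been added, but there were none. The SRSF3 exon and the comparison of start and stop codons were chosen after their values were seen. One summit window is not reported here.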

Additional observations from a re-analysis of the deposited data

How the results depend on the processing

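Of 53 alternatives for values measured in each replicate, 40 moved by less than the SD between the replicates and 13 by more. The 40 include all 20 that left out a replicate. Their shift from the mean of both replicates cannot exceed this SD, so they say nothing about stability. The 18 alternatives for values taken over both replicates at once have no such spread to judge a shift by. Among them, the count of exons covered in both replicates went from 0 to 1 with the stop codon condition dropped. None of the 71 reversed. The number of genes with an overlapping pair was 18 to 23, with 18 when peaks on an exon of another gene were left out, and Spearman's rho was 0.558 to 0.741. The following values are means of both replicates. With the MANE Select transcript alone, the intron share of summits was 30.4% in place of 13.6%, the 5′ UTR share 15.2% in place of 20.5% and the CDS share 36.6% in place of 39.0%, and 3.5 peaks per replicate in place of 0 touched no exon. By replicate, that 5′ UTR share was 12.7% (6.577 to 23.11%) and 17.65% (10.39 to 28.36%), against 5.555% and 10.22% over all genes. Taking the peak centre in place of the summit gave a CDS share of 27.5%, GGAC in 26.7%, TGGAC in 6.85% in place of 5.38% and CACACA in 3% in place of 1.53% of windows. Without peaks on an exon of another gene the 5′ UTR share was 16.0%, TGGAC was at 7.43% and CACACA at 2.13%. With summits in the gene span only, the CDS share was 40.2%. With an overlap of 50% of both peaks, 51.2% of peaks in place of 57.3% had a partner. Counting all NMD exons outside MANE Select gave 1 exon in place of 0 covered in both replicates. The cause of these shifts was not tested.

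With each replicate left out in turn, the median fold was 6.11 to 7.42, the overlap share 55.9% to 58.7%, the CDS share 38.2% to 39.7%, the 3′ UTR share 7.35% to 22.2%, the 5′ UTR share 17.5% to 23.5%, the intron share 9.52% to 17.6%, GGAC 23.8% to 25%, TGGAC 4.41% to 6.35% and CACACA 1.47% to 1.59%, and 0 peaks touched no exon in either. Leaving out HNRNPUL2-BSCL2 and using MANE Select exons for the peaks off all exons were chosen after seeing the data. No paired analysis was possible because the samples form 1 group. Pileups of about 10 reads at several summits limit what a missing partner shows: a peak absent from a list is not shown to be unbound.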
